A study of Mus musculus with 20 samples.

Results

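The genes considered here are 9 of the 23420 genes counted in mouse hearts, and they encode enzymes of the tricarboxylic acid (TCA) cycle other than succinate dehydrogenase. They were chosen by name, as Cs, Idh2, Idh3a, Idh3b, Idh3g, Ogdh, Sucla2, Fh1 and Mdh2, and all 9 were among the 13590 genes with 1 CPM (counts scaled to a library of 1000000) or more in 10 or more mice, which were tested. The set was put together under a heading that mentions aconitase, but no aconitase gene is in it.

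Hearts came from 20 male wild type mice aged 9 weeks, of the strain C57BL/6 by the sample labels and C57BL/6J by the study's methods. From 3 weeks of age, 10 mice received a control diet and 10 received an iron-deficient diet for 6 weeks, and the latter are called the iron-deficiency anemia (IDA) group. The sample labels give the iron content of the deficient diet both as below and as above 2 ppm. Poly(A) RNA of whole heart was sequenced as read pairs, 1 library per mouse. The study left 1 mouse of each group out of its own analysis for contamination without naming it, so all 20 libraries were kept here. Both groups differed in diet alone as labelled, so iron deficiency and the anemia that follows it cannot be told apart.

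The TCA cycle burns acetyl-CoA in the mitochondrial matrix and passes the electrons to the respiratory chain as NADH and FADH2. In the heart, a tissue that depends on oxidative metabolism, its enzymes are abundant in the many mitochondria of cardiomyocytes. Citrate synthase opens the cycle, and the dehydrogenases that follow are the steps at which electrons leave.

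The libraries held 6797180 to 8960688 read pairs assigned to genes in control (median 7902932) and 6682177 to 7833916 in IDA (median 6806177), so the mean total was 1.11 times as high in control. Cardiomyocyte markers were high in every mouse, with a summed level of 2579 to 3355 CPM over 6 genes in control and 2748 to 3445 CPM in IDA. Of 11 listed erythroid genes, 7 were in the table, with summed levels of 109 to 170 CPM in control and 163 to 609 CPM in IDA, and Hba-a1 and Hba-a2 were at 0 in every library. Fat markers reached at most 89.1 CPM over 4 genes. In whole tissue, a change in the number of cells of a type and a change in RNA per cell cannot be told apart.

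All 9 genes had a positive log2 fold change in IDA against control after scaling to library size, and 5 of them rose past the threshold of an adjusted p below 0.05 while none fell. The changes were small, from 0.03 for Cs to 0.16 for Idh3b on the log2 scale, that is 1.02-fold to 1.11-fold. Idh3b, Idh3g, Fh1, Mdh2 and Idh2 rose; Cs, Idh3a, Ogdh and Sucla2 did not pass. Calls come from the quasi-likelihood test of edgeR, and p values were adjusted by Benjamini-Hochberg over all tested genes. Of all tested genes, 35.0% were called higher and 32.5% lower in this fit, and against that background 5 of 9 higher and 0 of 9 lower is the count for these genes. Their median log2 fold change was 0.12, beside 0.02 over all tested genes. The study asked edgeR and DESeq2 each for a small p. With that rule read here as an unadjusted p below 0.01 in each, 2 of the 9 were higher and none lower, where 30.6% of all tested genes were higher and 29.2% lower. Those 2 genes were Idh3b and Idh3g. Markers of cell types moved in the same fit. All 6 cardiomyocyte markers had positive values, and Tnni3 (0.15) and Myl2 (0.14) were called higher. Of 5 endothelial markers, Cdh5 (-0.17), Kdr (-0.27) and Tek (-0.34) were called lower and Tie1 (0.08) higher, with summed levels of 1419 to 1599 CPM in control and 1236 to 1521 CPM in IDA. After the correction for gene length described below, 2 of the 5 endothelial markers were called higher and none lower. Of the 6 cardiomyocyte markers, 1 was then called higher and 4 lower, with Tnni3 at -0.17 and Myl2 at -0.22. That fit called 31.5% of all tested genes higher and 23.5% lower. The part of these markers in the values of the 9 genes was not tested.

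**Figure D1:**
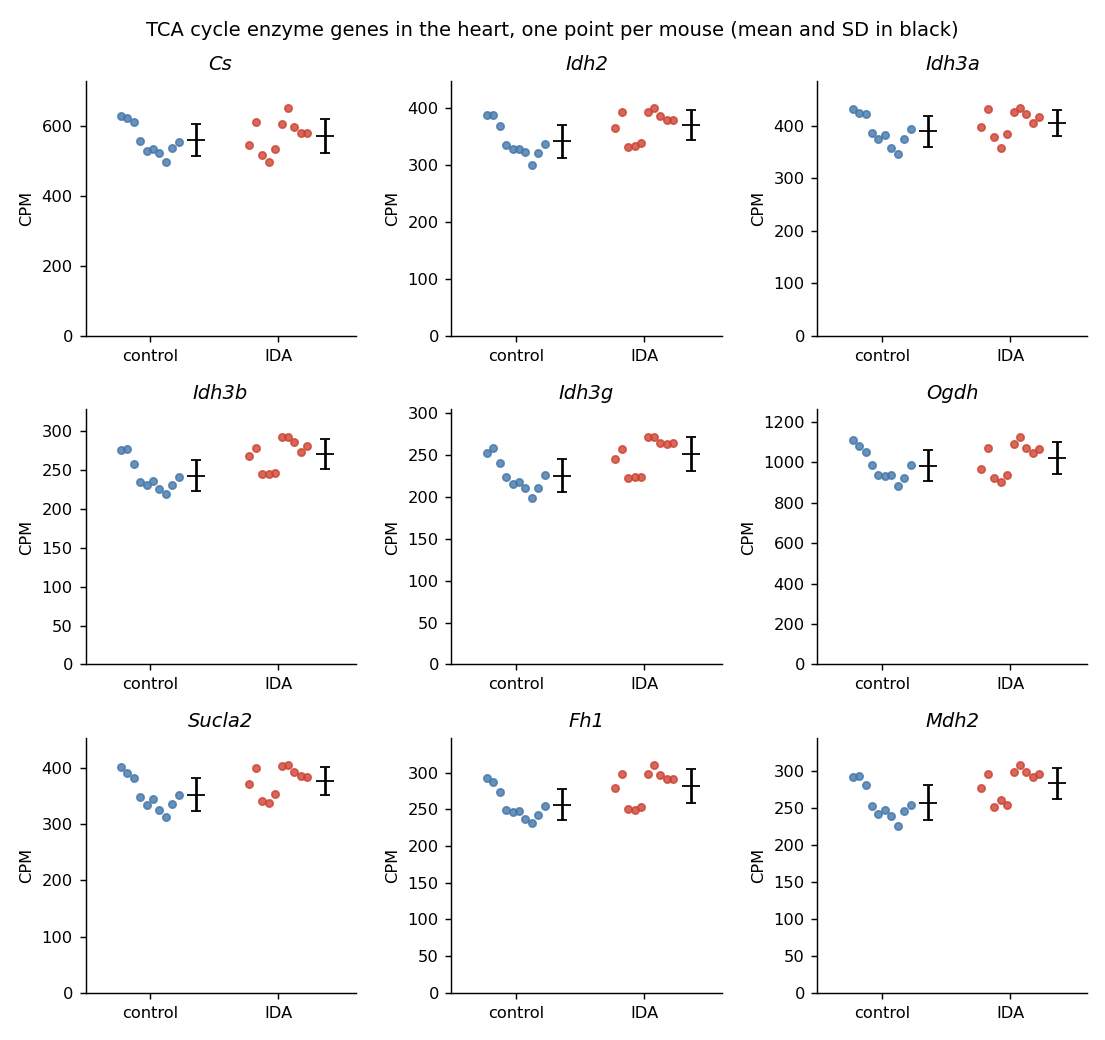
CPM of each of the 9 genes (vertical axis, from 0) in 10 control and 10 IDA mice, 1 point per mouse in replicate order, with the group mean and SD in black. The groups overlap for every gene, and control replicate 8 is the lowest point of all 9 panels.

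Cs encodes citrate synthase, which joins acetyl-CoA to oxaloacetate; the gene lies on mm10 chromosome 10 from 128337832 to 128362479. Its level was 497 to 627 CPM in control, with a median of 545 CPM, and 497 to 649 CPM in IDA, with a median of 579 CPM. The groups overlapped over nearly their whole range, and only 1 IDA mouse lay above the highest control mouse. The log2 fold change was 0.03 ± 0.05 (SE), with an adjusted p of 0.611 by edgeR.

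Idh2 encodes the mitochondrial isocitrate dehydrogenase that makes NADPH, and lies on chromosome 7 from 80094847 to 80115350. It ranged from 300.3 to 388 CPM in control (median 332) and from 332 to 400.0 CPM in IDA (median 380.0). Of the IDA mice, 7 lay above the control mean and 3 above the highest control mouse. Its log2 fold change was 0.12 ± 0.05 (SE; edgeR adjusted p = 0.0450), close to the threshold, and the call held in 6 of the 20 fits that each left out 1 mouse.

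The 3 genes of the NAD-dependent isocitrate dehydrogenase, which commits citrate carbon to the cycle, did not move equally. Idh3a, on chromosome 9 from 54586511 to 54604662, encodes the catalytic subunit, while Idh3b (chromosome 2, 130279309 to 130284451) and Idh3g (chromosome X, 73778963 to 73786897) encode the other subunits, of which the gamma subunit is regulatory. Idh3a ranged from 347 to 432 CPM in control (median 384) and from 358 to 433 CPM in IDA (median 411). Its groups overlapped almost fully, with 1 IDA mouse above all control mice, and its log2 fold change of 0.06 ± 0.04 (SE) did not pass (edgeR adjusted p = 0.255). Idh3b ranged from 219 to 277 CPM in control (median 235.1) and from 245 to 293 CPM in IDA (median 276). All 10 IDA mice lay above the control mean and 5 above the highest control mouse, and the log2 fold change was 0.16 ± 0.05 (SE; edgeR adjusted p = 0.00739). Idh3g ranged from 199 to 258 CPM in control (median 221) and from 223 to 272 CPM in IDA (median 260.2). Of its IDA mice, 7 lay above the control mean and 5 above the highest control mouse, and the log2 fold change was 0.15 ± 0.05 (SE; edgeR adjusted p = 0.0121). Both calls held in all 20 fits that left out 1 mouse. Idh3b shares 5 exonic bases with the neighboring gene Nop56, 0.329% of its length.

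The stretches upstream of Idh3b and Idh3g are shown because these were the genes with the lowest adjusted p values among the 9 and encode partner subunits of 1 enzyme. Each line gives the 250 bases before the annotated start from RefSeq on GRCm38.p6, written 5′ to 3′ on the minus strand of the gene, at chr2:130284452-130284701 for Idh3b and chrX:73786898-73787147 for Idh3g. Capitals mark matches to the core letters bound by hypoxia-inducible factors (ACGTG or GCGTG) and to an ETS motif (CCGGAAG), searched on both strands.
Idh3b: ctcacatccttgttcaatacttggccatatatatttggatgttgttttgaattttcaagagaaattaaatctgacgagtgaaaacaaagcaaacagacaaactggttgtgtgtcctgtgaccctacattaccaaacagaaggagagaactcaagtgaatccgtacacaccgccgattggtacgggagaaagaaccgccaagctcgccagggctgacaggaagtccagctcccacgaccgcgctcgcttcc
Idh3g: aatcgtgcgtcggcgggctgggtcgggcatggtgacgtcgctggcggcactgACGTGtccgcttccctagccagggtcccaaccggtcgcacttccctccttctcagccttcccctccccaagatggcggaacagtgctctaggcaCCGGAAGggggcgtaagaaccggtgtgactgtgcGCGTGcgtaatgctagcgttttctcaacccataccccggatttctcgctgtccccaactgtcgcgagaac
The Idh3b stretch held none of the searched letters and the Idh3g stretch held 2 hypoxia-type cores and 1 ETS motif, although both genes had nearly the same log2 fold change. Of the 9 genes, 8 had a promoter in the RefSeq table, and 5 of those 8 held the hypoxia-type core in at least 1 promoter, beside 38.6% of all 32851 promoters of the same length. The ETS letters were in 1 of the 8 genes (6.91% of all promoters), the NRF1 core GCGCATGC in 1 of the 8 (2.26%) and the estrogen-related receptor half-site AAGGTCA in none of the 8 (4.08%). The core in its palindromic form, CACGTG, is counted on both strands and is also the E-box. Ogdh has several annotated starts, so it had more promoters in which to find a match. A match describes letters only.

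Ogdh encodes the E1 component of the 2-oxoglutarate dehydrogenase complex, a calcium-sensitive step of the cycle, and lies on chromosome 11 from 6291597 to 6359094. It ranged from 882 to 1111 CPM in control (median 961) and from 903 to 1125 CPM in IDA (median 1054). The ranges nearly coincided, and the log2 fold change of 0.05 ± 0.05 (SE) did not pass (edgeR adjusted p = 0.364). Sucla2, on chromosome 14 from 73552786 to 73596142, encodes the ADP-forming beta subunit of succinyl-CoA synthetase, which makes a nucleoside triphosphate directly. It ranged from 313 to 401 CPM in control (median 347) and from 339 to 405 CPM in IDA (median 384). Of the IDA mice, 8 lay above the control mean but only 2 above the highest control mouse, and the log2 fold change of 0.10 ± 0.05 (SE) missed the threshold (edgeR adjusted p = 0.0759).

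Fh1 encodes fumarase, which hydrates fumarate to malate, on chromosome 1 from 175601378 to 175625635. It ranged from 231 to 293 CPM in control (median 248) and from 248.6 to 309.9 CPM in IDA (median 291). The groups overlapped, with 4 IDA mice above the highest control mouse, and the log2 fold change was 0.14 ± 0.05 (SE; edgeR adjusted p = 0.0203). Mdh2 encodes the mitochondrial malate dehydrogenase that regenerates oxaloacetate, on chromosome 5 from 135778649 to 135790386. It ranged from 225 to 294 CPM in control (median 249.8) and from 251.9 to 308 CPM in IDA (median 294). Here 5 IDA mice lay above the highest control mouse, and the log2 fold change was 0.14 ± 0.05 (SE; edgeR adjusted p = 0.0198). The calls of Fh1 and Mdh2 were each lost in 1 of the 20 fits that left out 1 mouse, the fit without control replicate 8, in which 2 of the 9 genes were called. Since the study left out 1 mouse of each group, all 100 such pairs were left out in turn. Idh3b was called in 100 of these fits, Idh3g in 96, Mdh2 in 64, Fh1 in 62, Idh2 in 40 and Sucla2 in 17, and Cs, Idh3a and Ogdh in none.

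Per exonic base of the count table, the counts of the 9 genes after duplicate removal lay within a narrow band. The 9 genes held 1.06 to 1.56 read pairs per base, where the densest gene of at least 200 bases reached 2.06 to 2.39. The cardiomyocyte markers Myh6 and Myl2 held 1.70 and 2.16. The part of duplicate removal in these levels and their order was not tested. In control, Idh2 stood at 566 ± 34.5 TPM (transcripts per 1000000, SD, n = 10), Mdh2 at 566 ± 37.0 TPM and Cs at 557 ± 31.3 TPM, levels that lay within 1 SD of one another. A gap larger than the SD separated them from Idh3g at 478 ± 28.6 TPM, Sucla2 at 472 ± 27.4 TPM, Idh3a at 457 ± 23.1 TPM, Idh3b at 451 ± 26.1 TPM and Fh1 at 442 ± 24.6 TPM, among which neighbors in the order again differed by less than their SD. On these lengths Ogdh was lowest, at 397 ± 20.9 TPM, with an exonic length of 6984 bases in the count table against 4127 bases in its longest GENCODE coding transcript. The order depends on that choice. Per base of the longest GENCODE coding transcript, Ogdh was highest of the 9, at 1.79 read pairs, ahead of Idh2 at 1.51, and Fh1 was lowest at 0.753. In IDA, again on the lengths of the count table, Mdh2 (589.6 ± 29.0 TPM) and Idh2 (580.1 ± 27.2 TPM) led, Cs followed at 538 ± 33.5 TPM, and Ogdh remained lowest at 389 ± 21.4 TPM. Idh3a stood eighth in IDA, at 449.6 ± 18.1 TPM, below both other subunits of its enzyme.

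The read pairs assigned to the 9 genes were almost the same number in every mouse before any scaling. Mdh2 had 1926 to 2002 read pairs in control (median 1961) and 1976 to 2095 in IDA (median 2023.5), while library totals spanned 1.34-fold. The highest count over the 20 mice was 1.08 to 1.14 times the lowest for the 9 genes, whereas their CPM spanned 1.25-fold to 1.37-fold. The coefficient of variation (CV) of the unscaled read pairs within a group was 1.20% to 3.51%, and counting error alone gives 1.15% to 2.41% at these counts. The CV was below counting error in both groups for Idh3g and Mdh2, and in 1 group each for Idh2 (control) and Fh1 (IDA). Over all 13590 tested genes, the CV of unscaled read pairs was a median of 2.22 times counting error in control and 2.31 times in IDA, and it lay below counting error in both groups for 191 genes.

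**Figure D2:**
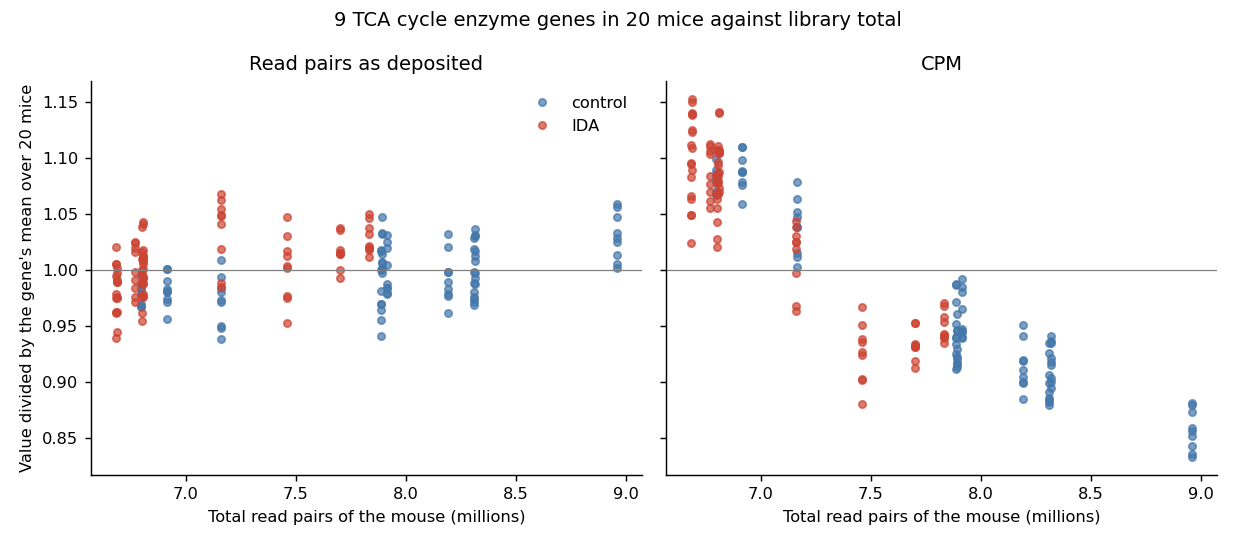
Read pairs as deposited (left) and CPM (right) of the 9 genes in 20 mice, each divided by the gene's mean over all mice (vertical axes, no unit), against the library total in read pairs (horizontal axes). Read pairs stay near 1 over the whole range of totals, while CPM is highest in the smallest libraries and lowest in control replicate 8, the largest library with 8960688 read pairs.

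The 9 genes were also among the most densely covered. They had 1.06 (Ogdh) to 1.56 (Mdh2) read pairs per exonic base after duplicate removal, between the 98.4th and the 99.9th percentile of tested genes, while the densest gene of at least 200 bases reached 2.06 to 2.39 read pairs per base in each mouse. All 9 fell among the 270 tested genes that averaged 1 or more read pairs per base. Of those 270 genes, 192 were called higher and 2 lower, with a median log2 fold change of 0.15. The median was -0.18 in the 1428 genes below 0.01 read pairs per base and -0.11 in the 3434 genes with 0.03 to 0.1. It was 0.03 in the genes with 0.1 to 0.3 and 0.20 in the 735 genes with 0.6 to 1. Among the 1935 genes with 0.3 to 0.6 read pairs per base the median was 0.16 with a wider interquartile range, from -0.03 to 0.31, against 0.11 to 0.20 in the densest genes. The CV of unscaled read pairs of the densest genes was a median of 1.24 times counting error in control, against 2.72 times in the 4056 genes with 0.1 to 0.3 read pairs per base. The part that coverage and library total have in the fold changes of the 9 genes was not tested beyond the fits below.

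**Figure D3:**
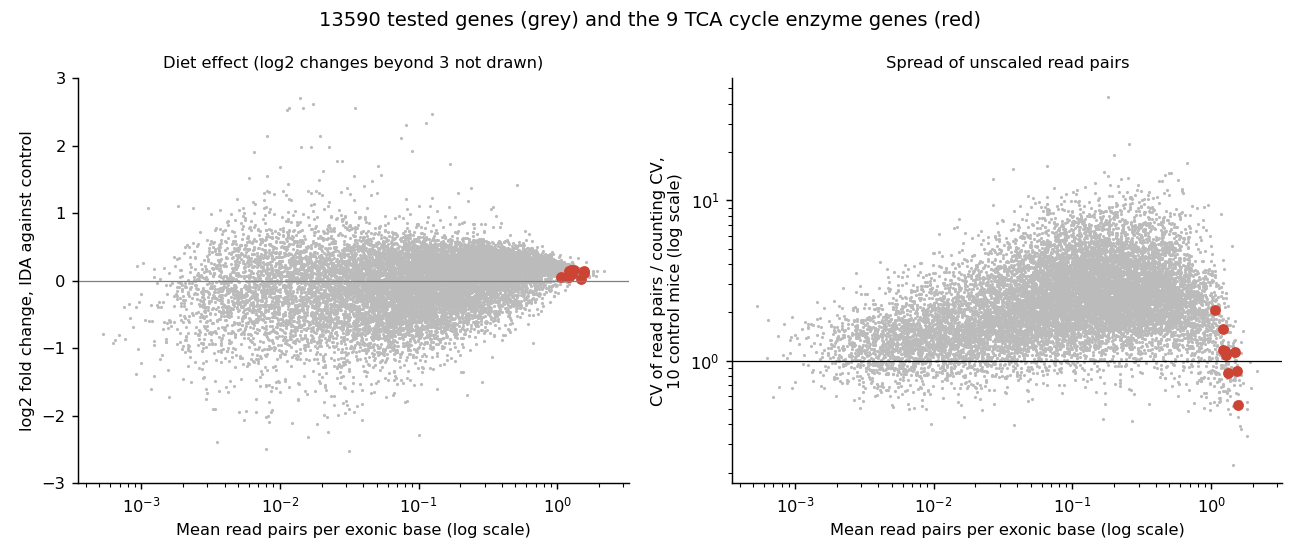
Left, log2 fold change of IDA against control for all tested genes (grey) and the 9 genes (red) against mean read pairs per exonic base (log scale). Right, the CV of unscaled read pairs over 10 control mice divided by the CV from counting alone (log scale) against the same axis, where the 9 genes lie between 0.532 (Mdh2) and 2.06 (Ogdh), at the dense end at which both the spread and the range of fold changes narrow.

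Without scaling to library size, 2 of the 9 genes were called higher and 1 lower, against 21.1% of all tested genes higher and 36.1% lower. Idh3b (log2 fold change 0.06 ± 0.03 SE, edgeR adjusted p = 0.0414) and Idh3g (0.06 ± 0.03 SE, edgeR adjusted p = 0.0426) were higher, and Cs was lower (-0.06 ± 0.02 SE, edgeR adjusted p = 0.0159). The order of the genes was kept, with Idh3b and Idh3g at the top and Cs at the bottom, since a common scaling moves all of them alike. With log2 library size as a covariate, none was called higher and Cs, Idh3a and Ogdh were called lower, at log2 fold changes of -0.11, -0.06 and -0.08, in a fit that called 29.1% of all tested genes higher and 29.1% lower. The median over all tested genes was -0.07 without scaling.

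Fold changes in these data also followed gene length, and the 9 genes differ in length from 1282 bases (Mdh2) to 6984 bases (Ogdh). After each mouse's trend on log2 exonic length was taken out, 1 gene was called higher and none lower, against 31.5% of all tested genes higher and 23.5% lower. That gene was Ogdh, at a log2 fold change of 0.50 ± 0.08 (SE; edgeR adjusted p = 1.1e-05), and its value was 0.21 ± 0.06 (SE; edgeR adjusted p = 0.00466) when the GENCODE transcript length replaced the exonic length of the count table. The trend taken out for Ogdh, the longest of the 9, was -0.45 (IDA minus control), and its value before the correction was 0.05. The corrected value of Ogdh is thus mostly that trend. The cardiomyocyte marker Myh6, of 6079 bases, went from 0.06 to 0.45. Each of the 5 genes that rose without the correction had a negative value after it, from -0.10 for Mdh2 to -0.04 for Fh1, none of them called. The median of the 9 went from 0.12 to -0.04. With a trend on read pairs per base taken out as well, Idh2, Idh3b, Idh3g, Fh1 and Mdh2 were called lower, at log2 fold changes from -0.10 for Mdh2 to -0.05 for Idh2, and Cs (0.05) and Ogdh (0.46) higher, where 29.9% of all tested genes were higher and 27.6% lower. With the GENCODE length in the length correction, and no trend on coverage, Idh2, Idh3b, Idh3g and Mdh2 were again negative. Fh1 was then at 0.08, not called.

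The column headings of the count table carry library numbers that fall into a lower and a higher set, and what the numbers stand for is not given in the sources used here. Within the lower set, 5 control libraries held 7890559 to 8960688 read pairs and 7 IDA libraries held 6682177 to 7833916, with no overlap, and 8 of the 9 genes were called higher and none lower, against 30.2% of all tested genes higher and 28.7% lower. Within the higher set, 5 control libraries (6797180 to 8316427 read pairs) and 3 IDA libraries (6805453 to 7702288) overlapped in total, and none of the 9 was called, with log2 fold changes from -0.09 for Cs to 0.03 for Idh3b, where 19.4% of all tested genes were called higher and 24.1% lower. The difference in diet effect between the sets was tested as an interaction, and none of the 9 genes passed (lowest edgeR adjusted p = 0.756), while 28 of all tested genes, 0.206%, did. The estimates, higher set against lower, were negative for all 9 genes. They ranged from -0.15 ± 0.09 (SE) for Idh3a to -0.24 ± 0.10 (SE) for Idh3g, so a difference between the sets is not excluded. With the mean of 4 erythroid genes as a covariate, Idh3b alone was called higher, at 0.20 ± 0.08 (SE; edgeR adjusted p = 0.0393), the values of the other 8 genes stayed positive, and 27.8% of all tested genes were called higher and 27.3% lower.

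**Figure D4:**
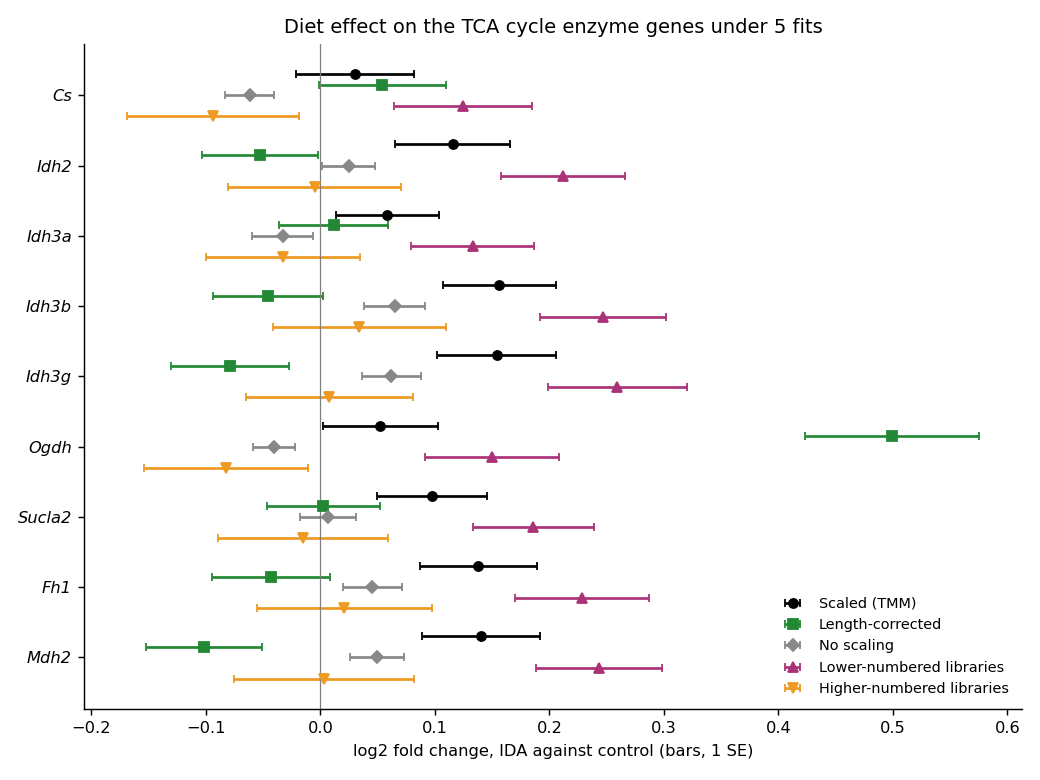
Log2 fold change of IDA against control (horizontal axis, bars 1 SE) of the 9 genes in 5 fits, namely scaled to library size (TMM), corrected for gene length, without scaling, and scaled within the lower-numbered or the higher-numbered libraries. The lower-numbered libraries give the highest value for every gene but Ogdh, for which the length-corrected value of 0.50 stands apart.

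Ratios between 2 genes of the same mouse are not affected by scaling to library size. Here 9 were compared by a two-sided permutation test over mice with Benjamini-Hochberg adjustment over the 9. No ratio was fitted with library total or coverage taken out. For the beta and gamma subunits of isocitrate dehydrogenase no difference passed before the length correction. The log2 ratio of Idh3b to Idh3g was -0.08 in both groups (0.944 in control and 0.946 in IDA as a ratio of TPM), a difference of 0.003 ± 0.01 (SE) with an adjusted p of 0.776. After the length correction it was 0.03 and passed (permutation adjusted p = 0.00773). Before the length correction, the catalytic subunit was lower relative to both. Idh3a to Idh3b had a ratio of 1.01 in control and 0.946 in IDA, a log2 difference of -0.10 ± 0.02 (SE; permutation adjusted p = 0.00027), and all 10 IDA mice lay below the control mean. Idh3a to Idh3g went from 0.956 to 0.896, a log2 difference of -0.09 ± 0.02 (SE; permutation adjusted p = 0.000702). Both differences were negative within each set of library numbers. Both turned positive after the length correction and passed in that direction. They were 0.06 (permutation adjusted p = 0.00189) and 0.09 (permutation adjusted p = 0.00084). Idh3a has 2404 exonic bases, Idh3b 1520 and Idh3g 1331.

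Before the length correction, Cs fell relative to Mdh2, the enzyme that supplies its oxaloacetate. The ratio of TPM was 0.985 in control and 0.912 in IDA, a log2 difference of -0.11 (permutation adjusted p = 4.5e-05), and the groups did not overlap, with a lowest control value of -0.061 and a highest IDA value of -0.065 on the log2 scale. After the length correction the difference was 0.16 and passed in that direction (permutation adjusted p = 3e-05). Idh2 rose relative to Idh3a from 1.24 to 1.29, a log2 difference of 0.06 (permutation adjusted p = 0.00262). That difference became -0.07 after the length correction and passed in that direction too (permutation adjusted p = 0.00084). The ratios of Ogdh to Dlst, the E2 component of the same complex, and of Mdh2 to its cytosolic counterpart Mdh1 had log2 differences of -0.02 and 0.01 and did not pass, each with a permutation adjusted p of 0.0634. After the length correction both passed, at 0.42 for Ogdh to Dlst (permutation adjusted p = 3e-05) and -0.11 for Mdh2 to Mdh1 (permutation adjusted p = 0.000202). Ogdh has 6984 exonic bases and Dlst 2767, and the length trend taken out for Ogdh was -0.45.

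A pair of ratios moved the same way with and without the length correction. Sucla2 pairs with the alpha subunit to form the ADP-linked enzyme and Suclg2 to form the GDP-linked enzyme, and their ratio of TPM was 2.26 in control and 2.61 in IDA. The log2 ratio was 1.07 to 1.25 in control and 1.27 to 1.48 in IDA, so the groups did not overlap, and the difference was 0.21 ± 0.03 (SE; permutation adjusted p = 4.5e-05, from the smallest p the permutations can give). It was 0.18 after the length correction, 0.23 within the lower-numbered libraries and 0.19 within the higher-numbered ones. Sucla2 had 1.28 read pairs per base and Suclg2 0.53. The part of that gap and of library total in the ratio was not tested. Suclg2 was the gene that fell in this pair, from 169 ± 8.86 CPM to 157 ± 13.5 CPM (SD, n = 10), with a log2 fold change of -0.11 ± 0.05 (SE; edgeR adjusted p = 0.0481). Idh2 relative to Idh1, the cytosolic NADP-dependent enzyme, had a ratio of 4.06 in control and 4.91 in IDA, a log2 difference of 0.27 (permutation adjusted p = 0.000702) and 0.15 after the length correction. Its log2 ratio was 1.89 to 2.34 in control and 2.08 to 2.51 in IDA, an overlap that came from 1 control mouse at 2.34. That mouse, control replicate 2, had the smallest control library (6797180 read pairs). Control replicate 1, with 6915707 read pairs, stood at 1.99. Idh2 had 1.55 read pairs per base and Idh1 0.349. The part of library total and coverage in this ratio was not tested. The log2 difference of Idh2 to Idh1 was 0.37 within the lower-numbered libraries and 0.11 within the higher-numbered ones.

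**Figure D5:**
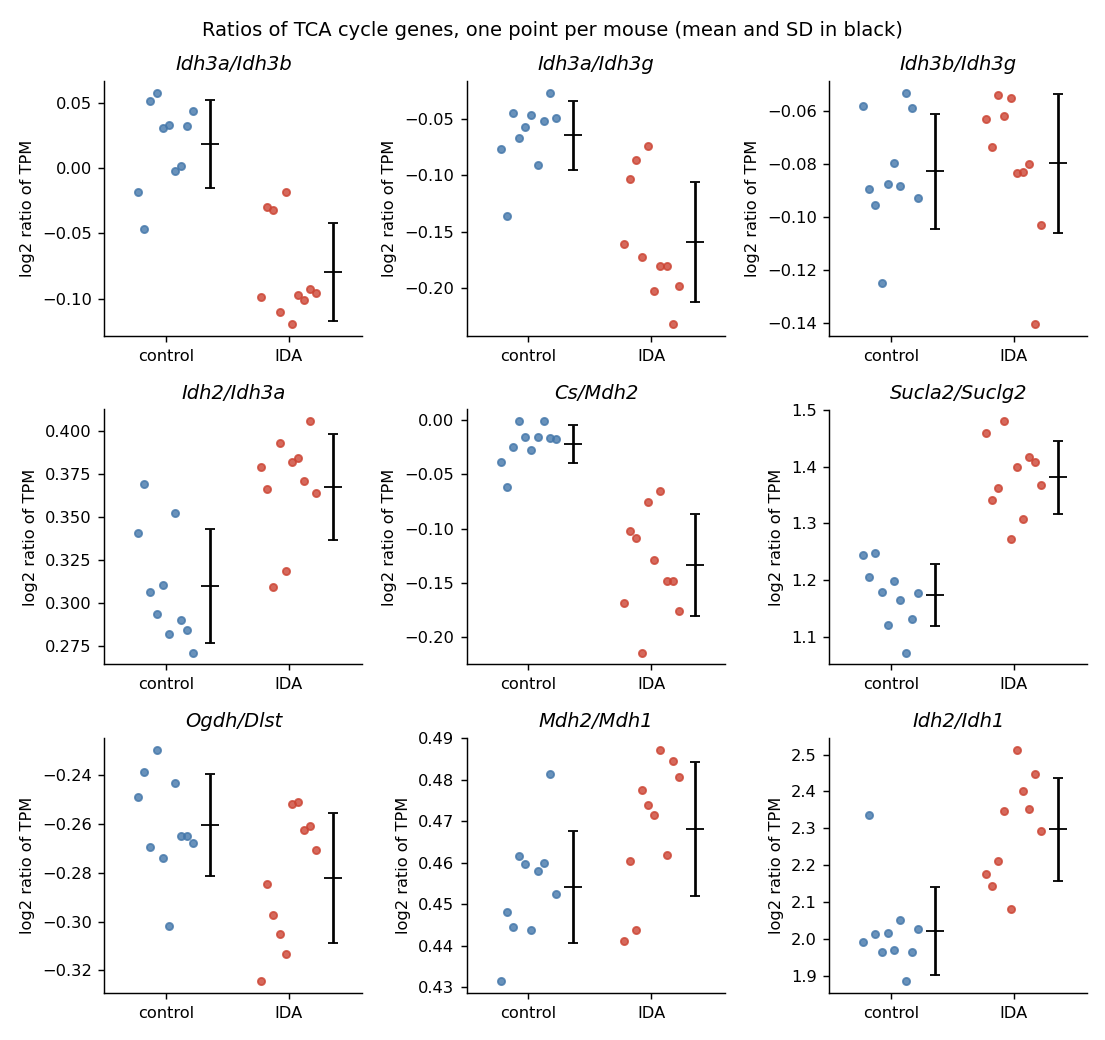
Log2 ratio of TPM (vertical axes, each with its own range) of 9 gene pairs in 10 control and 10 IDA mice, 1 point per mouse, with the group mean and SD in black. The groups are apart for Cs to Mdh2 and for Sucla2 to Suclg2, and for Idh3b to Idh3g the ranges overlap almost fully.

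Among the other genes of the cycle, 5 of 10 rose and 1 fell, with a median log2 fold change of 0.12, where 35.0% of all tested genes were higher and 32.5% lower. The 5 were Suclg1, the shared alpha subunit of succinyl-CoA synthetase (0.15), Mrps36, a small component of the 2-oxoglutarate dehydrogenase complex (0.17), and the succinate dehydrogenase subunits Sdhb (0.15), Sdhc (0.14) and Sdhd (0.16). Suclg2 fell. After the length correction, none of the 10 was higher and 4 were lower, namely Suclg2, Mrps36, Sdhb and Sdhc, where 23.5% of all tested genes were lower.

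Of 6 cytosolic counterparts, Mdh1 and Got1, both enzymes of the malate-aspartate shuttle, rose (0.12 and 0.11 on the log2 scale) and Idh1 fell (-0.16 ± 0.05 SE, edgeR adjusted p = 0.0111). Mdh1 and Got1 were called neither after the length correction (0.003 and 0.008) nor without scaling. Idh1 was also lower after the length correction, at -0.20, and without scaling, at -0.25. Aco1, the cytosolic aconitase that also acts as an iron-responsive RNA-binding protein, was at 134 ± 4.82 CPM in control and 135 ± 8.94 CPM in IDA (SD, n = 10) and was not called (edgeR adjusted p = 0.746). After the length correction Aco1 was called higher, at 0.24.

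Of 12 genes through which carbon enters or leaves the cycle, 6 rose and 2 fell, against the same 35.0% and 32.5% of all tested genes. Mut, the methylmalonyl-CoA mutase of propionate breakdown, fell by 0.46 ± 0.07 (SE), from 257 ± 15.7 CPM to 188 ± 28.1 CPM (edgeR adjusted p = 4.4e-06). Mut was also lower after the length correction, by a smaller amount (-0.32). The genes that rose were Pck2 (0.30), Me3 (0.21), Pcx (0.19), Pccb (0.15), Got2 (0.13) and Mcee (0.13), of which Pcx encodes the pyruvate carboxylase that refills oxaloacetate, Me3 a mitochondrial malic enzyme and Pck2 the mitochondrial phosphoenolpyruvate carboxykinase. Pcx, Me3 and Pck2 were higher after the length correction as well, at 0.41, 0.44 and 0.41, and Mcee turned to -0.21. Pccb (0.09) and Got2 (0.08) were not called after it. Without scaling, none of the 12 genes was called higher and 4 were called lower, against 21.1% and 36.1% of all tested genes.

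Of 8 mitochondrial carriers, 4 rose and 1 fell, against 35.0% and 32.5% of all tested genes. The citrate carrier Slc25a1 rose from 22.5 ± 3.13 CPM to 32.1 ± 7.05 CPM, a log2 fold change of 0.52 ± 0.11 (SE; edgeR adjusted p = 0.000184), and the dicarboxylate carrier Slc25a10 rose from 44.0 ± 3.86 CPM to 60.5 ± 4.92 CPM, a log2 fold change of 0.46 ± 0.06 (SE; edgeR adjusted p = 5.47e-07). Both were higher with the length correction and without scaling. The pyruvate carrier subunit Mpc2 (0.22) and the oxoglutarate carrier Slc25a11 (0.14) rose as well but were not called after the length correction. The aspartate-glutamate carrier Slc25a13 fell (-0.15) and was not called after the length correction either (-0.08). The values of Slc25a1 and Slc25a10 exceeded that of each of the 9 enzymes in the same fit, a difference that was not tested.

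Paralogs of the 9 genes went separate ways. Dhtkd1, an E1 enzyme of the 2-oxoglutarate dehydrogenase family that acts in lysine breakdown, was low and fell from 7.05 ± 2.02 CPM to 2.25 ± 0.877 CPM (SD, n = 10), a log2 fold change of -1.65 ± 0.21 (SE; edgeR adjusted p = 6.86e-07). It was -1.53 after the length correction and -1.76 without scaling. Csl, which resembles citrate synthase and could share reads with Cs, had 11.6 ± 1.58 CPM in control and 9.36 ± 1.45 CPM in IDA and fell by 0.30 (edgeR adjusted p = 0.00868). Ogdhl rose by 0.14, barely past the threshold (edgeR adjusted p = 0.0498), and Mdh1b was not expressed at a level that could be tested. Nnt, which passes reducing power from NADH to NADPH beside Idh2, was not called (-0.08, edgeR adjusted p = 0.236).

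The 9 genes varied together from mouse to mouse. With the group means taken out, Pearson's r between their log2 CPM over 20 mice ranged from 0.94 to 0.99 over the 36 pairs, with a median of 0.97. The points share library total, and on unscaled log2 counts the r ranged from 0.11 to 0.90 with a median of 0.65. The genes whose length-corrected pattern was most like the mean of the 9 were Pln, a regulator of the cardiac calcium pump (r = 0.995), Acadvl of fatty acid oxidation (0.993), the ATP synthase subunits Atp5a1 (0.992) and Atp5b (0.988), Tmem38a (0.992), Slc25a11 (0.99), Mdh1 (0.99), Ybx1 (0.989), Ndufs1 of complex I (0.989) and Uqcrc1 of complex III (0.989). Of these 10 genes, 9 had 1 or more read pairs per base, as all 9 enzymes had.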

How the data were processed

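Per the file headers and the study's methods, STAR was the aligner (mm10), SAMtools took out PCR duplicates, and the authors then obtained exonic read pairs per gene from featureCounts (1.4.5-p1) without regard to strand. The deposited values are raw counts, with no normalization, for 20 mice. The exonic length of each gene comes from the same file, and 0 columns were left unused. From these, CPM, TPM and log2 values were computed here. R 4.3.3, edgeR 4.0.16 (TMM factors, quasi-likelihood test, diet as the only term), DESeq2 1.42.0 and limma 3.58.1 were used, and standard errors of fold changes were taken from the edgeR F statistic. The filter asked for 1 CPM or more in 10 or more mice, and calls used an adjusted p below 0.05. The length correction was a loess (span 0.5, degree 1) of each mouse's deviation on log2 exonic length, entered as offsets. Ratio tests used 100000 resamples. Scripts were tested on simulated data with known changes. Simulated counts followed library size, which the counts of the 9 genes did not, so that check does not cover this feature. All 9 genes were named. The 9 genes, the gene lists and the tests were chosen with earlier results of these data known. The most similar genes were the 10 with the highest r to the mean of the 9. Replicates are separate mice, and no 2 libraries agreed within sampling noise. Depth is given by the totals, and the counting CV of a gene is the inverse square root of its mean count. Alternatives included DESeq2, other scalings and filters, covariates, leaving out mice, and, chosen after seeing the data, unscaled counts and fits within, with and by library number sets. Some genes of the lists are counted but not reported here by name.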

Additional observations from a re-analysis of the deposited data

Results flagged for a closer look

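In 54 groups of values, each a gene's or a ratio's 10 mice of 1 group, a single mouse stood apart from the others in 2, by Dixon's criterion, and chance alone gives about 1 in 20. For Fh1, IDA replicate 1 held 2110 unscaled read pairs, the highest of the 20 mice, where the IDA median was 2016.5. For the log2 ratio of Idh2 to Idh1, control replicate 2 stood at 2.34, inside the IDA range of 2.08 to 2.51, where the control mean was 2.02.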

How the results depend on the processing

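Of the 9 genes, 5 were called higher in the fit reported above (35.0% of all tested genes higher). There were also 5 with DESeq2 (34.5%), relative log expression factors (34.7%), no low-count filter (25.8%) and a filter of 5 CPM (37.7%). There were 6 with upper-quartile factors (37.9%) and 6 with the set of library numbers as a covariate (35.2%). The count was 8 with library size alone (40.4% of all tested genes higher), 9 with limma after cyclic loess (37.9%), 3 after a correction for length and base composition (26.6%), 2 without scaling, 2 after a correction for length and coverage and 2 under the rule of p below 0.01 in edgeR and DESeq2. It was 1 at an adjusted p below 0.01 (29.4%), 1 with the erythroid covariate (27.8%) and 0 with library size as a covariate (29.1%). It was also 1 after the length correction with edgeR (31.5%), DESeq2 (31.2%), the GENCODE length (29.9%) or the replicate block (29.2%). Within the library number sets it was 8 in the lower and 0 in the higher. None was called lower in the reported fit, but 1 was without scaling, 2 after the length and GC correction (19.8% of all tested genes lower), 3 with library size as a covariate and 5 after the length and coverage correction. Leaving out 1 mouse gave 2 to 6 genes higher, with 2 only without control replicate 8, and leaving out 1 mouse of each group in the 100 possible pairs gave 1 to 6. The cause of these differences was not tested.

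Several log2 fold changes turned negative. The length correction gave -0.053 for Idh2, -0.046 for Idh3b, -0.079 for Idh3g, -0.043 for Fh1 and -0.10 for Mdh2, and DESeq2 gave -0.053, -0.046, -0.079, -0.043 and -0.10 in the same order. With GC content added, Idh2 was at -0.18, Idh3b at -0.081, Idh3g at -0.11 and Mdh2 at -0.22. With the GENCODE length, Idh2 was at -0.088, Idh3a at -0.011, Idh3b at -0.068, Idh3g at -0.12, Sucla2 at -0.026 and Mdh2 at -0.11. With coverage added to the exonic length, Idh2 was at -0.053, Idh3a at -0.012, Idh3b at -0.066 and Idh3g at -0.094. In that fit Sucla2 was at -0.011, Fh1 at -0.066 and Mdh2 at -0.10. With library size as a covariate, Cs was at -0.11, Idh2 at -0.029, Idh3a at -0.061, Ogdh at -0.085, Sucla2 at -0.037, Fh1 at -0.0081 and Mdh2 at -0.013. Without scaling, Cs was at -0.062, Idh3a at -0.033 and Ogdh at -0.040. Within the higher library numbers, Cs was at -0.094, Idh2 at -0.0050, Idh3a at -0.033, Ogdh at -0.082 and Sucla2 at -0.015. Cs was at -0.0015 without control replicate 8 and at -0.014 in the lowest of the 100 fits.

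Same-numbered mice of both groups did not deviate together (r from -0.28 to 0.26, above 0.1 in 3 of 10 pairs, and 3 of 10 mice correlated best with their own number), so they shared only a number. The replicate block gave 4 genes called higher and none lower, without Idh2 (0.12, edgeR adjusted p = 0.0707). In that fit 33.7% of all tested genes were called higher and 31.8% lower. With the length correction, the replicate block gave -0.054 for Idh2, -0.047 for Idh3b, -0.081 for Idh3g, -0.045 for Fh1 and -0.10 for Mdh2.

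Among the ratios, the length correction changed the log2 difference to 0.059 for Idh3a to Idh3b, 0.093 for Idh3a to Idh3g and 0.034 for Idh3b to Idh3g. It gave -0.065 for Idh2 to Idh3a, 0.16 for Cs to Mdh2, 0.42 for Ogdh to Dlst and -0.11 for Mdh2 to Mdh1. Each of these differences passed after the correction. Within the lower library numbers Idh3b to Idh3g was at -0.012. Within the higher ones, Idh3a to Idh3g was at -0.041, Idh3b to Idh3g at 0.027, Ogdh to Dlst at -0.050, Mdh2 to Mdh1 at -0.00067 and Idh2 to Idh1 at 0.11. Leaving out 1 mouse gave -0.0015 to 0.0098 for Idh3b to Idh3g (negative only without control replicate 4), -0.026 to -0.017 for Ogdh to Dlst and 0.012 to 0.017 for Mdh2 to Mdh1. Ogdh to Dlst passed without control replicate 6 (permutation adjusted p = 0.0265), IDA replicate 6 or IDA replicate 7, and Mdh2 to Mdh1 without control replicate 9 (permutation adjusted p = 0.0188), IDA replicate 1 or IDA replicate 3. Sucla2 to Suclg2 kept its sign and its call under every alternative run that had a test. Counts of the 9 genes, 1668 or more read pairs in every mouse, set a counting CV of at most 2.41%.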
